A study of Mus musculus with 6 samples.

Results

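Lysosomal hydrolases and lysosomal membrane proteins were examined in RNA-seq of mouse renal cortex as a set of 38 genes, taken by symbol from the 24346 genes of each deposited FPKM table (fragment numbers scaled to transcript length and library total). All 38 symbols were found, and all 38 reached 1 FPKM in 3 or more libraries, so all are among the 12248 genes tested. The tested mice were 3 C57BL/6 mice fed the HF/HC/HS/BA diet, which holds much fat and cholesterol and contains bile salt, with tofogliflozin for 8 weeks. Their controls were 3 C57BL/6 mice fed the same HF/HC/HS/BA diet without the drug for 8 weeks, so the diet that the labels call NASH is shared by both groups. Tofogliflozin inhibits SGLT2 (Slc5a2), which takes up filtered glucose in the proximal tubule. Slc5a2 itself was at 161, 168 and 163 FPKM in tofogliflozin mice and 172, 149.8 and 221 FPKM in diet mice, with overlap (limma adjusted p = 0.746). Age and sex were not given in the sources used here, and mice on an ordinary diet were not analysed here.

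Lysosomes are acidic organelles in which proteins, glycans and lipids taken up or sorted for disposal are broken down. Most of their soluble enzymes reach them through mannose 6-phosphate tags, while heavily glycosylated membrane proteins such as LAMP1 and LAMP2 line the boundary and a proton pump, the V-ATPase, acidifies the interior. In the kidney the proximal tubule is the segment best known for lysosomal work, since it retrieves filtered proteins by endocytosis and degrades them. The transcription factors TFEB and TFE3 induce many of these genes through an E-box called the CLEAR element, and are held in the cytoplasm when mTORC1 is active at the lysosomal surface. The question addressed was whether the transcripts of this machinery differed between mice given the drug and mice given the diet alone.

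The promoters of the members are given first, with the E-box letters that TFEB-type factors are known to prefer. Many genes of this kind are known targets of those factors, so a high share among the members is not independent support. RefSeq promoter windows of 300 bases on GRCm38.p6, from 250 bases before to 50 after the start site, were given for 34 of the 38 members (40 windows). The E-box core CACGTG was present in 13 of the 34 members (38.2%), against 1107 of 9346 tested genes with a window (11.8%). It was in 4 of 28 other lysosomal enzymes (14.3%) and 4 of 15 V-ATPase subunit genes (26.7%). Over single windows of this length it was in 32.5% of the members' windows, 9.92% of those of tested genes and 7.15% of all 32851 windows. The longer letters GTCACGTG, on either strand, were in windows of 10 members (29.4%) and of 4.9% of tested genes, with 3.57% of other lysosomal enzymes and 13.3% of V-ATPase genes. The letters TCACGTGA, which read the same on both strands, were in 4 members (11.8%) and in 2.26% of tested genes, with 7.14% of other lysosomal enzymes and 20.0% of V-ATPase genes, the highest share of these sets. Both longer strings contain the core, so these counts overlap, and a match describes letters and not a bound site.

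Windows of 6 members follow, 5′ to 3′ on the gene's strand, with each core in capitals. Ctsa, Ctsd, Gla and Mcoln1 are the 4 members with TCACGTGA, Lamp1 has the most cores (4), and Scarb2, the member of smallest p, has no core in its window. Ctsa encodes protective protein/cathepsin A, and its window with cores is chr2:164833523-164833822 on the plus strand. Ctsd encodes the aspartic protease cathepsin D, at chr7:142387778-142388077 on the minus strand. Gla encodes alpha-galactosidase A, at chrX:134600956-134601255 on the minus strand. Mcoln1 encodes the lysosomal calcium channel TRPML1, at chr8:3500269-3500568 on the plus strand. Lamp1 is at chr8:13158911-13159210 on the plus strand and Scarb2 at chr5:92505608-92505907 on the minus strand.
Ctsa: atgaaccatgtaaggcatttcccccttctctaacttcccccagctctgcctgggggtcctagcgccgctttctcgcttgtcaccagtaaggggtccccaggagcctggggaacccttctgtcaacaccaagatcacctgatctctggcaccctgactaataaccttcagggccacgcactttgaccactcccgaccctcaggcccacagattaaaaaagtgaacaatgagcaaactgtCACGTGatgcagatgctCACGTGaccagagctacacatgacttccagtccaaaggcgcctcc
Ctsd: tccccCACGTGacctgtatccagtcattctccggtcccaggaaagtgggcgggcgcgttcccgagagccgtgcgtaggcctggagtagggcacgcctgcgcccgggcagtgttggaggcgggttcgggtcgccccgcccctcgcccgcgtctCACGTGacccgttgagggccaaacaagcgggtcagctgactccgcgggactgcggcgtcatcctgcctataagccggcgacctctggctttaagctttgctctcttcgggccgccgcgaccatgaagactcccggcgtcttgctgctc
Gla: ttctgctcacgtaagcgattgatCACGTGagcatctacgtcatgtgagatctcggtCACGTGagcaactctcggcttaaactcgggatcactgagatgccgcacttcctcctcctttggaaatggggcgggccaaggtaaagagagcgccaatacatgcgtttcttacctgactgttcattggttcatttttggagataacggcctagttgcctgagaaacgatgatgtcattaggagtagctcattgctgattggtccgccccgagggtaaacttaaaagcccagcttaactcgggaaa
Mcoln1: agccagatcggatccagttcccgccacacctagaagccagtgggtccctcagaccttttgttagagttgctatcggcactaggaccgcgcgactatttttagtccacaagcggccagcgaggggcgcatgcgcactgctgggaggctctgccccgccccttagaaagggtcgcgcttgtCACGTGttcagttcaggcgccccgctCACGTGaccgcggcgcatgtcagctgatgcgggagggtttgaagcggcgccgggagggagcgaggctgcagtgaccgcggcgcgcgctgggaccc
Lamp1: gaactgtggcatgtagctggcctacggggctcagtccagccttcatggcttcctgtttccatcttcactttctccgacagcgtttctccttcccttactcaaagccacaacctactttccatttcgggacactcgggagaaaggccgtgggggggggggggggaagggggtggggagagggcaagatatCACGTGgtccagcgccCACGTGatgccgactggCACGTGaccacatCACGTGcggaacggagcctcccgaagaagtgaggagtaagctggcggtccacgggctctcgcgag
Scarb2: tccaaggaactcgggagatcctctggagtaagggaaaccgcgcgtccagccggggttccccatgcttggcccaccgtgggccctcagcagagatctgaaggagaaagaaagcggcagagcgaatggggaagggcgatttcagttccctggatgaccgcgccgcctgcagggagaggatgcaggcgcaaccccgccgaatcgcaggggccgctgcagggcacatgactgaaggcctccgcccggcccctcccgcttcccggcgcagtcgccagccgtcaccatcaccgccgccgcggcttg

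**Figure D1:**
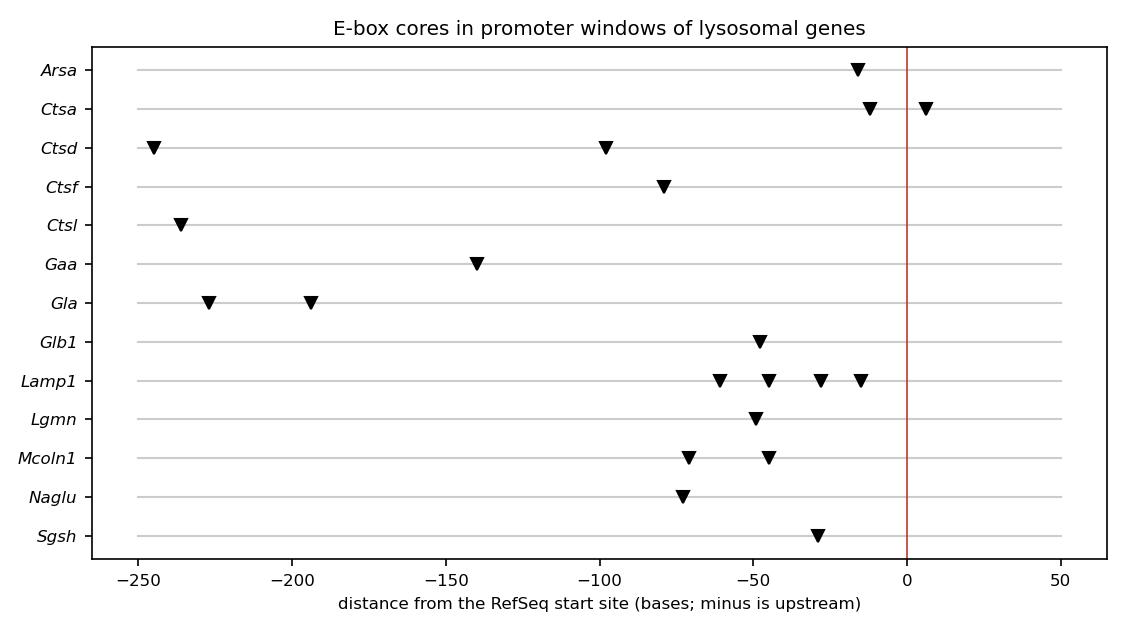
Position of each CACGTG core (triangle, first base of the core) in the RefSeq promoter windows of the 13 lysosomal genes that have at least 1, with distance from the start site on the horizontal axis in bases and the start site as the red line. The 4 cores of Lamp1 begin at positions -61, -45, -28 and -15, those of Mcoln1 at -71 and -45, and those of Ctsd at -245 and -98.

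The correlation of log2 values between libraries ran from 0.980 to 0.990, and the upper quartile from 10.5 to 10.6 FPKM. Since counts were not among the files, depth was read from the steps between low values, which gave about 8.05 to 10.3 M fragments for tofogliflozin libraries and about 7.94 to 8.65 M for diet libraries (M, a factor of 1e6). At that depth Gla rested on about 35 to 80 fragments per library and Cd63 on about 22031 to 33185, taking the longest annotated transcript as the length. The 20 proximal tubule markers of renal cortex each had a mean of at least 35.7 FPKM, among them Slc34a1, the phosphate transporter of that segment, at 2186 ± 92.2 FPKM in tofogliflozin mice and 2499 ± 189 FPKM in diet mice (SD, n = 3 each). Before adjustment, 8 of those 20 had a limma p under 0.05, 4 higher and 4 lower (40% in all, against 13.1% of all genes), and 0 passed after it. Their median log2 change was -0.04, and 0.05 without diet replicate 1. Macrophage markers stood far higher in diet replicate 2 than in the other libraries. Their 18 genes summed to 177, 205 and 144 FPKM with tofogliflozin and to 229.7, 444 and 166 FPKM with the diet, and the scavenger receptor Cd163, a defining marker, was at most 0.111 FPKM in any library. Of the 15 tested, 14 lay below 0 and none passed (limma; 2 at an unadjusted p under 0.05), with a median log2 change of -0.46. That median was -0.12 without diet replicate 2 and -0.74 without diet replicate 3. Of 12 glomerular and endothelial markers 7 lay above 0 (median 0.05, from 0.01 to 0.12 when each library was left out), and of 11 lymphocyte markers only 2 could be tested, both below 0. The results were also computed without diet replicate 2.

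The set spanned a wide range of levels and made up 0.953% to 0.968% of the total FPKM in tofogliflozin libraries and 0.974% to 1.01% in diet libraries. FPKM is scaled by length, so levels can be set beside each other. Cd63, a tetraspanin of late endosomes and exosomes, was the highest, at 1116, 1108 and 1090.1 FPKM in tofogliflozin mice and 1046, 956 and 1122 FPKM in diet mice. The precursor of the saposins, Psap, came next, followed by Lamp1, the asparagine endopeptidase Lgmn and Lamp2. Lamp1 was at 642, 690.4 and 639.7 FPKM in tofogliflozin mice and 707, 649 and 648 FPKM in diet mice. Lamp2, the partner of Lamp1 whose loss causes Danon disease in people, was at 476, 460.5 and 451 FPKM in tofogliflozin mice and 492, 446 and 469 FPKM in diet mice. The ranges of the groups overlapped for each of these 3 membrane proteins. The enzymes with the lowest levels were Gla, Idua (alpha-L-iduronidase), Arsa (arylsulfatase A) and Sgsh (sulfamidase), all under 6 FPKM in every library.

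**Figure D2:**
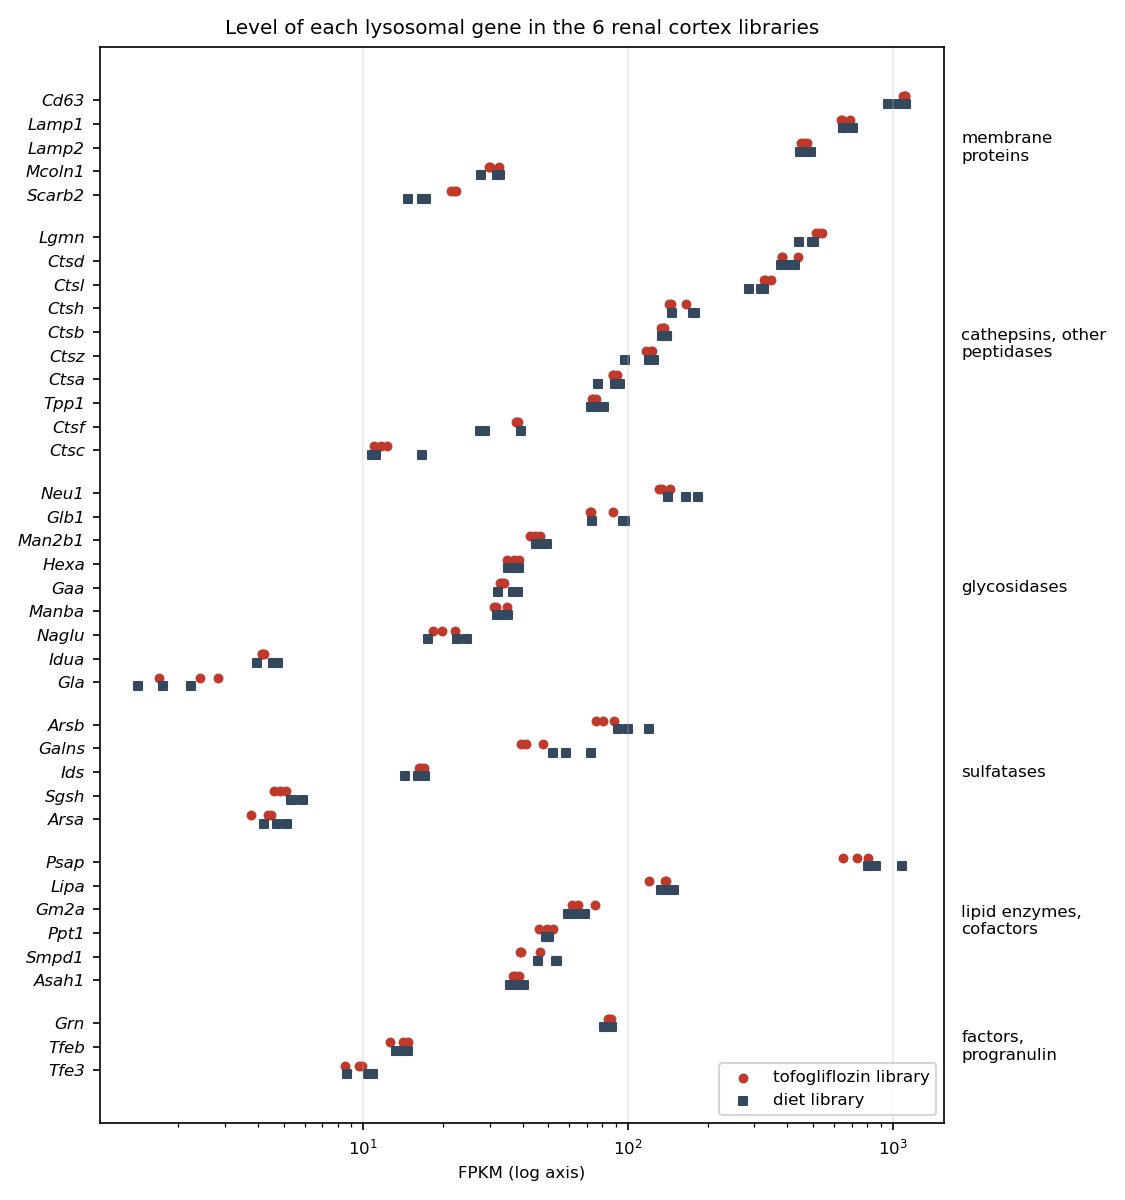
FPKM of each of the 38 lysosomal genes in the 6 libraries, on a log axis, grouped by role (circles, tofogliflozin; squares, diet; 1 symbol per mouse). Levels run from about 2 FPKM for Gla to over 1000 FPKM for Cd63, and for 33 of the 38 genes the symbols of the 2 groups overlap.

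None of the 38 members passed the test between tofogliflozin and diet mice. At a Benjamini-Hochberg adjusted p under 0.05 in limma's moderated test over all 12248 genes, 0 of the 38 members were called, where 0.253% of all genes were (0.196% higher and 0.0572% lower). Before adjustment, 6 members (15.8%) had a limma p under 0.05, 1 higher and 5 lower, against 13.1% of all genes tested (6.7% higher and 6.39% lower), so the share lay near the background. Groups did not overlap for 5 members (13.2%), 2 higher and 3 lower, against 18.5% of all genes (9.63% higher and 8.86% lower). The median log2 change, tofogliflozin minus diet on the log2(FPKM + 1) scale, was -0.03 over the members and -0.00075 over all genes, and 26 of 38 members lay below 0 (68.4%, against 50.3% of all genes). Without diet replicate 1, 20 members lay below 0 and 18 above, and the median was -0.01. The changes were small. The 95% interval of 31 members, not adjusted for the number of genes, lay wholly within 0.5 of 0 on the log2 scale, and 23 members had an estimate within 0.1 of 0. In bulk tissue, fewer cells of a type and less RNA per cell cannot be told apart.

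The count of 0 held in all 13 alternative fits, which included leaving out each library. The 6 members at an unadjusted p under 0.05 became 3 without tofogliflozin replicate 1, 2 without tofogliflozin replicate 3, 2 without diet replicate 1 and 9 without diet replicate 2. Genes called over the whole table (limma adjusted p under 0.05) moved too, from 31 to 4, 2, 9 and 66 in those fits. The share of all genes at the unadjusted threshold was not computed for them, so the counts of members have no background there.

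**Figure D3:**
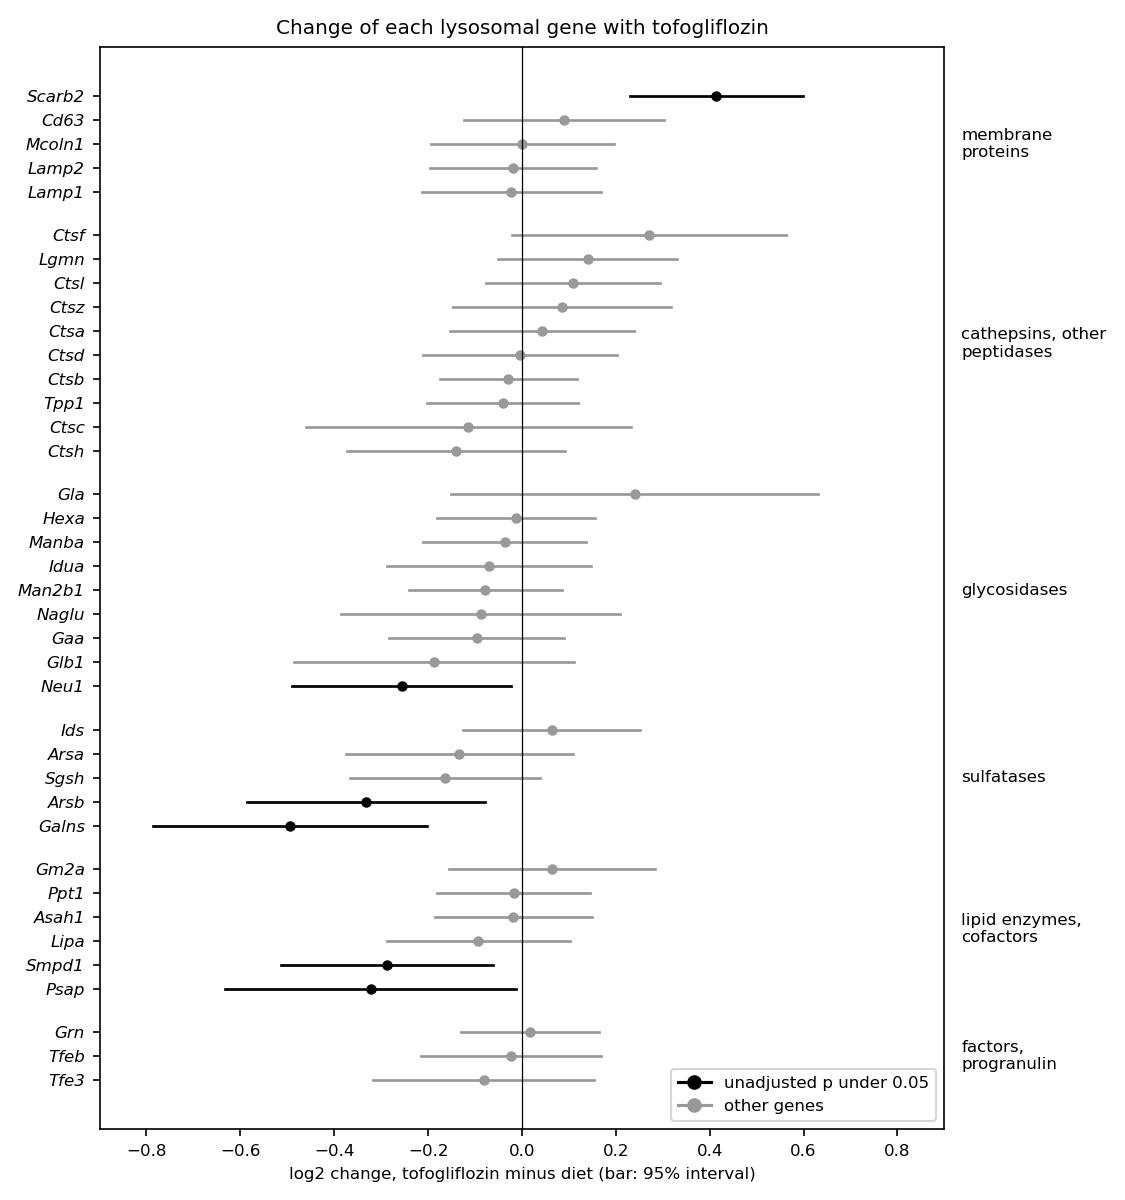
Log2 change (tofogliflozin minus diet, on the log2(FPKM + 1) scale) of each lysosomal gene with its 95% interval from limma, grouped by role. The 6 genes in black had an unadjusted p under 0.05, Scarb2 above 0 and Galns, Arsb, Smpd1, Neu1 and Psap below 0, and 0 passed after adjustment over all genes.

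Among the 5 membrane proteins, Scarb2 came nearest to the threshold. It encodes LIMP-2, the membrane protein that carries beta-glucocerebrosidase to the lysosome, and spans chr5:92441314-92506833 on the minus strand. Scarb2 was at 22.3, 21.4 and 22.1 FPKM in tofogliflozin mice and at 14.7, 16.7 and 17.3 FPKM in diet mice. Every tofogliflozin library lay above every diet library, and the tofogliflozin libraries were within 1 FPKM of each other. The log2 change was 0.41 ± 0.08 (SE; 95% interval 0.23 to 0.60) and the limma adjusted p was 0.0819. Over the 13 alternatives that adjusted p ran from 0.0759 to 0.319, and the log2 change from 0.35 to 0.46. Cd63 had a log2 change of 0.09 (limma adjusted p = 0.738). For Lamp1, Lamp2 and Mcoln1 the estimates were -0.02, -0.02 and 0.00078, with intervals reaching at most 0.21 from 0. Mcoln1 was at 30.9 ± 1.53 FPKM in tofogliflozin mice and 30.9 ± 2.70 FPKM in diet mice (SD, n = 3 each).

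Of the 10 cathepsins and other peptidases, none passed (limma; 0 at an unadjusted p under 0.05), 5 lay above 0 and 5 below, and the median log2 change was 0.02. The sign of that median turned when a library was left out, with values of -0.03 without diet replicate 2 and -0.002 without tofogliflozin replicate 2, and a highest value of 0.05. Ctsf, a cysteine cathepsin, was at 38.02, 37.9 and 38.5 FPKM in tofogliflozin mice and at 28.8, 27.5 and 39.3 FPKM in diet mice. Diet replicate 3 lay above all tofogliflozin libraries while the other diet libraries lay well below them. The log2 change of Ctsf was 0.27 (limma adjusted p = 0.418), and 0.43 without diet replicate 3 (limma adjusted p = 0.0770). Lgmn was at 528, 515 and 540.3 FPKM in tofogliflozin mice and 502, 441 and 495 FPKM in diet mice. Its groups did not overlap, with a log2 change of 0.14 (limma adjusted p = 0.522). Ctsl, a cysteine endopeptidase abundant in this tissue, was at 346, 325 and 329 FPKM in tofogliflozin mice and 317, 286 and 326 FPKM in diet mice, overlapping by 1 diet library (limma adjusted p = 0.611). Ctsh, an aminopeptidase, leaned the other way at 143, 166 and 146 FPKM in tofogliflozin mice and 176, 147 and 179.7 FPKM in diet mice, and its ranges overlapped (limma adjusted p = 0.5995).

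The other enzymes of this group that are broadly expressed had close means (limma adjusted p from 0.772 for Ctsz to 0.989 for Ctsd). Ctsd was at 401 ± 32.6 FPKM in tofogliflozin mice and 402 ± 24.0 FPKM in diet mice (SD, n = 3 each), and Ctsb, the most studied cysteine cathepsin, at 135 ± 1.94 FPKM in tofogliflozin mice and 138 ± 3.00 FPKM in diet mice. Ctsa was at 88.7 ± 1.69 FPKM with tofogliflozin and 86.4 ± 8.58 FPKM with the diet, and Ctsz, a carboxypeptidase, at 121 ± 3.33 FPKM with tofogliflozin and 115 ± 14.8 FPKM with the diet. Tpp1, the tripeptidyl peptidase lost in a childhood neuronal ceroid lipofuscinosis, was at 74.2 ± 1.23 FPKM with tofogliflozin and 76.5 ± 4.46 FPKM with the diet. Ctsc, which activates serine proteases of immune cells, was at 10.9, 12.3 and 11.7 FPKM in tofogliflozin mice and 11.2, 16.7 and 10.8 FPKM in diet mice. The high value is diet replicate 2, the library with the high macrophage markers, and the part of those cells in it was not tested. In GENCODE, Ctsd shares 34.4% of its annotated exon bases with the overlapping gene Gm49369 on its strand. Gm49369 is not among the deposited genes under that symbol, so whether reads were shared is not known and the value of Ctsd is uncertain.

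The glycosidases remove sugars from glycoproteins, glycolipids and glycosaminoglycans, and 8 of the 9 lay below 0, with a median log2 change of -0.08 that ran from -0.11 to -0.05 over the alternatives. None passed (limma; 1 at an unadjusted p under 0.05). Thus 88.9% lay below 0 and 11.1% had such a p, against 50.3% and 13.1% of all genes. Neu1, the lysosomal sialidase, spans chr17:34931253-34935953 on the plus strand. Neu1 was at 134, 143 and 131 FPKM in tofogliflozin mice and 183, 142 and 165 FPKM in diet mice. Diet replicate 2 fell inside the tofogliflozin range and the other diet libraries lay above it. The log2 change was -0.26 ± 0.10 (SE; limma adjusted p = 0.334). Glb1, the beta-galactosidase that forms a complex with cathepsin A and the sialidase, had the same shape, at 72.0, 87.8 and 72.4 FPKM in tofogliflozin mice and 97.4, 72.9 and 95.5 FPKM in diet mice (limma adjusted p = 0.582). Glb1 shares 5.49% of its exon bases with Tmppe on the same strand.

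Gla was the exception above 0, at 1.70, 2.41 and 2.83 FPKM in tofogliflozin mice and 1.41, 2.23 and 1.75 FPKM in diet mice. Its groups overlapped and, at its level, the 95% interval of the log2 change was the widest of the set (-0.15 to 0.63; limma adjusted p = 0.594). Hexa, the alpha subunit of beta-hexosaminidase, was at 36.8 ± 1.84 FPKM in tofogliflozin mice and 37.2 ± 1.79 FPKM in diet mice (SD, n = 3 each). Gaa, the acid alpha-glucosidase that degrades lysosomal glycogen, was at 33.4 ± 0.529 FPKM with tofogliflozin and 35.9 ± 3.22 FPKM with the diet. Manba and Man2b1, the beta- and alpha-mannosidases, had log2 changes of -0.04 and -0.08. Naglu and Idua, which act on heparan sulfate, had log2 changes of -0.09 and -0.07. The antisense neighbours Slc26a1 and Dgkq cover 3.35% and 2.95% of the exon bases of Idua, and both stood far above it in level. Slc26a1 was at 63.2, 64.6 and 56.5 FPKM in tofogliflozin mice and 78.5, 69.8 and 72.3 FPKM in diet mice. Whether strand was used in counting is not given, so the value of Idua is uncertain.

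The 5 sulfatases, which strip sulfate groups from glycosaminoglycans and sulfolipids, had the lowest median of the roles, at a log2 change of -0.16 (from -0.25 to -0.12 over the alternatives). None passed (limma; 2 at an unadjusted p under 0.05), and 3 of the 5 had groups that did not overlap. These are 40% and 60% of a list of 5, where 13.1% and 18.5% of all genes did so. Galns, which removes sulfate from keratan sulfate and chondroitin 6-sulfate, spans chr8:122578242-122611463 on the minus strand. Galns was at 41.1, 47.7 and 39.3 FPKM in tofogliflozin mice and 72.3, 52.3 and 58.2 FPKM in diet mice. All diet libraries lay above all tofogliflozin libraries, with diet replicate 1 the farthest away. The log2 change was -0.49 ± 0.13 (SE; 95% interval -0.79 to -0.20), the largest of the 38 in size, and the limma adjusted p was 0.179. Leaving out diet replicate 1 gave a log2 change of -0.37, and leaving out diet replicate 2 gave -0.60 with a limma adjusted p of 0.0812.

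Arsb, arylsulfatase B, which acts on dermatan sulfate, spans chr13:93771630-93943016 on the plus strand. It was at 80.3, 88.9 and 75.9 FPKM in tofogliflozin mice and 119, 99.5 and 91.5 FPKM in diet mice. The groups did not overlap, and the gap between the nearest libraries was small beside the spread of the diet libraries. The log2 change was -0.33 ± 0.11 (SE; limma adjusted p = 0.253). Sgsh, which acts on heparan sulfate, was at 5.12, 4.85 and 4.59 FPKM in tofogliflozin mice and 5.43, 5.33 and 5.93 FPKM in diet mice, apart by a narrow margin (limma adjusted p = 0.476). Arsa, which degrades sulfatide, was at 4.46, 4.36 and 3.77 FPKM in tofogliflozin mice and 4.70, 4.23 and 5.17 FPKM in diet mice, with overlap (limma adjusted p = 0.637). The antisense neighbours Card14 and C230037L18Rik cover 21.6% of the exon bases of Sgsh and 18.8% of those of Arsa, and whether strand was used in counting is not given in the sources used here. Ids, iduronate-2-sulfatase, was the 1 sulfatase above 0, at 16.6 ± 0.3005 FPKM in tofogliflozin mice and 15.9 ± 1.41 FPKM in diet mice (SD, n = 3 each).

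Of the 6 lipid-degrading enzymes and cofactors, 5 lay below 0 (median log2 change -0.06), and none passed (limma; 2 at an unadjusted p under 0.05). These are 83.3% and 33.3% of a list of 6, where 50.3% and 13.1% of all genes did so. Psap, whose product is cut into the saposins that present sphingolipids to their hydrolases, spans chr10:60277627-60302597 on the plus strand. Psap was at 733, 809 and 648 FPKM in tofogliflozin mice and 1079.6, 866 and 804 FPKM in diet mice. Diet replicate 3 and tofogliflozin replicate 2 met at the edge of the ranges, and diet replicate 1 stood apart on the high side. The log2 change of Psap was -0.32 ± 0.13 (SE; limma adjusted p = 0.361), and -0.20 without diet replicate 1. Smpd1, acid sphingomyelinase, spans chr7:105554360-105558389 on the plus strand. It was at 39.3, 46.5 and 39.2 FPKM in tofogliflozin mice and 53.4, 45.8 and 54.0 FPKM in diet mice, with diet replicate 2 just below tofogliflozin replicate 2. The log2 change was -0.29 ± 0.10 (SE; limma adjusted p = 0.267).

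The enzymes that handle neutral lipid and ceramide differed less. Lipa, the acid lipase that frees cholesterol and fatty acids from lipoprotein lipid, was at 120.2, 139 and 138 FPKM in tofogliflozin mice and 141, 134 and 149 FPKM in diet mice (limma adjusted p = 0.696). Its 95% interval of the log2 change ran from -0.29 to 0.10. Asah1, acid ceramidase, was at 37.6 ± 1.05 FPKM in tofogliflozin mice and 38.2 ± 2.41 FPKM in diet mice. Gm2a, the GM2 ganglioside activator, was at 67.1 ± 7.17 FPKM with tofogliflozin and 64.1 ± 4.72 FPKM with the diet, and Ppt1, a palmitoyl-protein thioesterase, at 49.2 ± 3.05 FPKM with tofogliflozin and 49.7 ± 0.759 FPKM with the diet (SD, n = 3 each).

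**Figure D4:**
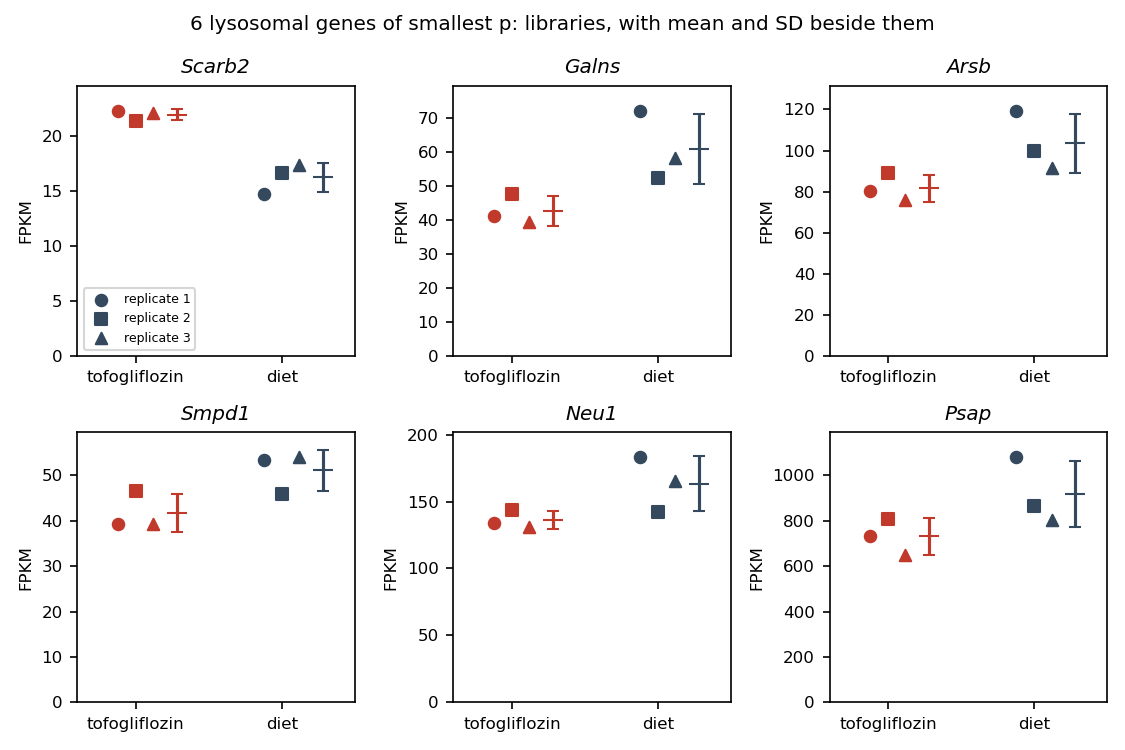
FPKM in each library of the 6 lysosomal genes of smallest p, with tofogliflozin on the left and the diet on the right of each panel (symbols, replicate numbers of the labels; bars, mean and SD of 3 mice). Scarb2 is higher in all 3 tofogliflozin libraries, Galns and Arsb are lower in all 3, and for Smpd1, Neu1 and Psap the groups overlap.

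The transcripts of the regulators differed by less than their spread between libraries. Tfeb was at 12.6, 14.2 and 14.7 FPKM in tofogliflozin mice and 14.7, 13.3 and 14.1 FPKM in diet mice, with overlap (limma adjusted p = 0.939), and its log2 change was -0.02 with bounds at -0.22 and 0.17. Tfe3, its paralog, was at 8.55, 9.90 and 9.63 FPKM in tofogliflozin mice and 10.4, 8.69 and 10.9 FPKM in diet mice, also with overlap (limma adjusted p = 0.788), and its log2 change was -0.08 with bounds at -0.32 and 0.15. These are transcript levels, and the activity of both factors is set largely by where the protein sits in the cell, which was not measured. Grn, which encodes progranulin and is needed for normal lysosomal function, was at 85.1 ± 1.18 FPKM in tofogliflozin mice and 84.1 ± 2.67 FPKM in diet mice. The 13 members with a CACGTG core in the window had a median log2 change of -0.0039, with 6 above 0 and 7 below. The 21 with a window and no core had a median of -0.04, with 6 above and 15 below, and 5 of the 6 members at an unadjusted p under 0.05 were among them. Of all genes tested, 50.3% lay below 0 and 13.1% had such a p. No window was given for Galns, Asah1, Ctsb and Ctsh.

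In 26 of the 38 members (68.4%) the lowest diet value was in diet replicate 2, against 40.5% of all genes tested. Among 38 other lysosomal enzymes that was so for 13 (34.2%), and diet replicate 3 was the lowest for 20 (52.6%). Diet replicate 2 also had the lowest total FPKM, at 565754 against 633338 in diet replicate 1 and 621783 in diet replicate 3. As a share of the total the members were at 1.013%, 0.997% and 0.974% in diet replicates 1 to 3, so lowest in replicate 3. The share over all genes was not matched to the members in level. The mean deviation of the members from their own means was -0.05, 0.03 and -0.05 on the log2 scale with tofogliflozin and 0.07, -0.05 and 0.05 with the diet alone. The proximal tubule markers had the same order in the diet libraries, with deviations of 0.11, -0.11 and 0.10, and their lowest diet value was in replicate 2 for 14 of 20. With tofogliflozin the deviations of these markers were -0.14, 0.06 and -0.02, highest in replicate 2 as for the members but lowest in replicate 1. Macrophage markers were at -0.21, -0.04 and -0.50 with tofogliflozin and 0.06, 0.94 and -0.26 with the diet alone. In diet replicate 2 they were high where the members were low, while in the tofogliflozin libraries both were highest in replicate 2 and lowest in replicate 3. Distal nephron and collecting duct markers were at 0.08, 0.09 and 0.17 with tofogliflozin and -0.27, -0.03 and -0.04 with the diet alone, so their groups did not overlap. The same was true of the lists for enzyme sorting, lower with tofogliflozin, and for TFEB control, higher with tofogliflozin. For TFEB control the gap was narrow, at 0.03, 0.01 and -0.004 with tofogliflozin and -0.008, -0.02 and -0.02 with the diet alone. That list mixes genes of different roles, so its mean gives no direction for TFEB activity. The part of these cell types in the levels of the lysosomal genes was not tested. The members' spread within the tofogliflozin group was narrower by its median. The ratio of the highest to the lowest library had a median of 1.102 over the members there and 1.18 in the diet group. The widest ratio was in the tofogliflozin group, at 1.67 for Gla. The ratio over all genes was not computed, so the members have no background there.

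**Figure D5:**
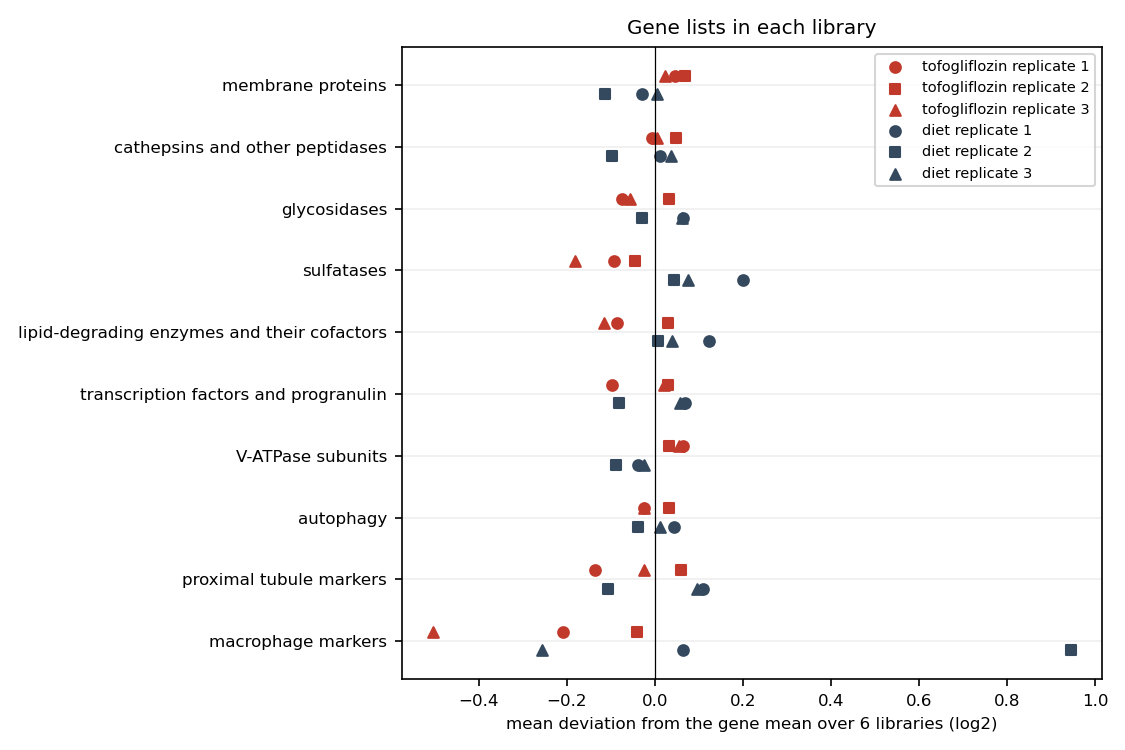
Mean deviation of each gene list from the mean of its genes over the 6 libraries (log2 scale), with 1 symbol per library, red for tofogliflozin and dark for the diet. Of the lists drawn, the sulfatases, membrane proteins and V-ATPase subunits have groups that do not overlap, and macrophage markers reach 0.94 in diet replicate 2.

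Among further genes of the lysosome, Hyal1 passed the test. Of 38 further lysosomal enzymes tested, 1 rose and none fell over all genes (limma adjusted p under 0.05; 3 higher and 3 lower at an unadjusted p under 0.05), with a median log2 change of -0.04 that ran from -0.05 to -0.01 when each library was left out. At the unadjusted threshold that was 15.8%, against 13.1% of all genes. Hyal1, the lysosomal hyaluronidase, was the gene that rose, to 16.0, 15.8 and 20.5 FPKM in tofogliflozin mice, against 5.11, 5.80 and 4.201 FPKM in diet mice (limma adjusted p = 0.00769). In GENCODE, Naa80 covers 50.8% and Hyal3 4.21% of the annotated exon bases of Hyal1 on the same strand. Naa80 is not among the deposited genes under that symbol, and the annotation used for the FPKM is not given. Whether reads were shared is therefore not known, and the value of Hyal1 is uncertain. Ppt2, a thioesterase related to Ppt1, was at 102 ± 6.43 FPKM in tofogliflozin mice and 127 ± 9.90 FPKM in diet mice (limma adjusted p = 0.193), and Ggh, gamma-glutamyl hydrolase, at 17.8 ± 0.871 FPKM in tofogliflozin mice and 14.9 ± 1.52 FPKM in diet mice (limma adjusted p = 0.294).

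Of 32 other lysosomal membrane proteins and transporters tested, none passed (limma; 0 higher and 3 lower at an unadjusted p under 0.05, which is 9.38% against 13.1% of all genes). Slc29a3, a lysosomal nucleoside transporter, was at 19.2, 19.7 and 20.2 FPKM in tofogliflozin mice and 27.5, 26.9 and 23.1 FPKM in diet mice (limma adjusted p = 0.129). Slc36a1, which exports small amino acids from lysosomes, was at 41.4, 44.6 and 36.8 FPKM in tofogliflozin mice and 61.7, 47.5 and 60.9 FPKM in diet mice (limma adjusted p = 0.181). Both were lower in every tofogliflozin library, with log2 changes of -0.37 and -0.45. Laptm4b, a membrane protein of late endosomes, was at 21.3 ± 1.23 FPKM in tofogliflozin mice and 24.9 ± 2.74 FPKM in diet mice (limma adjusted p = 0.381).

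Of 21 genes of enzyme sorting and activation none passed (limma; 0 at an unadjusted p under 0.05). Below 0 lay 17 (81.0%, against 50.3% of all genes), with a median log2 change of -0.05 (-0.06 to -0.02 when each library was left out). The smallest adjusted p of that list was 0.464, for the trans-Golgi sorting adaptor Gga1. Of 23 genes tested from a list on TFEB control, which also holds the factors Mitf, Tfec and Zkscan3, none passed (limma; 0 higher and 1 lower at an unadjusted p under 0.05). Above 0 lay 17, where 49.7% of all genes did. Groups did not overlap for 7 (30.4%, against 18.5% of all genes), 5 higher and 2 lower. Rptor, the mTORC1 subunit that recruits substrates, was at 6.42, 6.63 and 6.52 FPKM in tofogliflozin mice and 8.22, 7.59 and 7.96 FPKM in diet mice, with no overlap (limma adjusted p = 0.230). Rragd, a Rag GTPase that places mTORC1 on lysosomes, was at 18.4 ± 0.0874 FPKM with tofogliflozin and 16.5 ± 0.391 FPKM with the diet (limma adjusted p = 0.386). Ppp3r1, a calcineurin subunit, was at 25.5 ± 0.485 FPKM with tofogliflozin and 23.3 ± 0.502 FPKM with the diet (limma adjusted p = 0.455). Of 35 autophagy genes none passed (limma; 0 at an unadjusted p under 0.05), with 15 above 0 and 20 below. Gabarapl1, which encodes an ATG8-family protein of the autophagosome, was at 742 ± 43.1 FPKM in tofogliflozin mice and 649 ± 84.0 FPKM in diet mice (limma adjusted p = 0.506).

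Most genes of the proton pump lay above 0, though genes for the same subunit differed. Of 21 V-ATPase subunit genes none passed (limma; 6 higher and 1 lower at an unadjusted p under 0.05), 16 lay above 0, and the median log2 change was 0.07. Of all genes, 6.7% were higher and 6.39% lower at that p, and 49.7% lay above 0. Atp6v1c2 was at 22.0, 20.0 and 22.5 FPKM in tofogliflozin mice and 17.2, 14.8 and 16.9 FPKM in diet mice (limma adjusted p = 0.129). Atp6v1g3 was at 30.6, 23.3 and 27.98 FPKM in tofogliflozin mice and 17.0, 19.9 and 22.6 FPKM in diet mice (limma adjusted p = 0.212). Atp6v0d2 was at 18.2 ± 1.78 FPKM in tofogliflozin mice and 13.8 ± 2.097 FPKM in diet mice (limma adjusted p = 0.232). Among genes for the same subunit, log2 changes were 0.27, 0.02 and -0.26 for Atp6v0a4, Atp6v0a1 and Atp6v0a2, and 0.38 and -0.04 for Atp6v0d2 and Atp6v0d1. For Atp6v1b1 and Atp6v1b2 they were 0.25 and -0.07, for Atp6v1c2 and Atp6v1c1 0.38 and 0.06, and for Atp6v1g3 and Atp6v1g1 0.44 and 0.10. Which of these genes serve lysosomes was not tested. Atp6v1g3 is known from acid-secreting intercalated cells of the distal nephron. The 15 distal nephron and collecting duct markers, a list that contains it, had 14 genes above 0 and a median log2 change of 0.21 (limma; 6 higher and 0 lower at an unadjusted p under 0.05, which is 40% against 13.1% of all genes, and 0 after adjustment). Their part in the V-ATPase values was not tested.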

How the data were processed

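The authors deposited 1 table per library of FPKM over 24346 genes, per the file headers. RNA was column-purified and libraries were made with a stranded mRNA kit, per the labels' protocols. Build mm10 and the tools Cuffdiff 2.2.1, SAMtools 0.1.18, Bowtie2 2.2.8 and TopHat2 2.1.1 were used, per the submitters' processing notes. Annotation, use of strand and scaling: not given in the sources used here.

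Genes reaching 1 FPKM in 3 or more libraries (12248) were transformed to log2(FPKM + 1), which understates the fold of low genes, and compared with limma 3.58.1 in R 4.3.3 (mean-variance trend, two-sided, Benjamini-Hochberg over all tested genes, threshold 0.05). Rates of false and missed calls are not given for this fit. Groups and replicate numbers came from the labels. The members and lists were chosen with earlier results of these data known. Values are given per library for the 14 members of smallest p, the 5 of highest level, Lamp1, Tfeb and Tfe3. Up to 3 genes are named from each of 11 other lists. Ctsc, Lipa and Slc34a1 were added after their values were seen, as were the V-ATPase genes given beside another gene of the same subunit. Depth was estimated from the steps between values below 0.3 FPKM and the lengths of 29 single-transcript genes. Gene positions and overlaps are from GENCODE M21 (GRCm38, the same build as mm10), promoter windows from RefSeq (GRCm38.p6). Figures were drawn with matplotlib 3.10.9.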

Additional observations from a re-analysis of the deposited data

How the results depend on the processing

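None of the 38 lysosomal genes passed in any of the 13 alternatives (limma; smallest adjusted p 0.0759 to 0.319), and their median log2 change stayed below 0, from -0.05 to -0.01. The number of genes called over the whole table was 31, and 1 with no filter on low values, 20 with a filter of 5 FPKM, 47 with upper-quartile scaling and from 2 to 66 when each library was left out; the cause was not tested. Members at an unadjusted p under 0.05 numbered from 2 to 9 over the leave-out fits and from 5 to 8 over the others. The share of all genes at that p was not computed in the alternatives. Lamp1, Lamp2 and Tfeb changed sign when a library was left out, with log2 changes from -0.058 to 0.018, from -0.055 to 0.016 and from -0.066 to 0.037. With the replicate number as a block, 26 genes and 0 members were called, and the smallest adjusted p of a member was 0.206. Libraries of the same number did not deviate together: the correlations of their deviations from the group means were -0.05, -0.06 and 0.05, so the numbers are not taken as pairs. With a filter of 5 FPKM, Gla, Arsa and Idua were not tested. With 3 mice per group, p-values set each difference against the spread between these mice. That spread was moderated in limma toward a trend over all tested genes. Gla, with about 35 to 80 fragments per library, had the largest SE of the 38 (0.17), while the SE of Sgsh, Idua and Arsa, also low, was 0.09, 0.09 and 0.10.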

Other observations

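Among other lysosomal enzymes, 3 are given here that were singled out after their values were seen. Ctss, a cathepsin of antigen-presenting cells, was at 27.5, 28.5 and 20.1 FPKM in tofogliflozin mice and 34.0, 56.9 and 17.5 FPKM in diet mice, highest in diet replicate 2, where macrophage markers were also highest. Gusb, beta-glucuronidase, was at 13.5, 11.9 and 11.7 FPKM in tofogliflozin mice and 31.0, 14.4 and 16.5 FPKM in diet mice, with diet replicate 1 far above the other diet libraries (limma adjusted p = 0.330). Diet replicate 1 was also the highest library for Galns, Arsb, Neu1 and Psap. Arsg, a sulfatase of heparan sulfate, was at 13.3, 17.98 and 14.2 FPKM in tofogliflozin mice and 27.6, 16.2 and 23.2 FPKM in diet mice (limma adjusted p = 0.298).

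Rnaset2a and Rnaset2b, near-identical lysosomal ribonuclease genes, traded levels between libraries. Rnaset2a was at 1.25, 13.6 and 9.72 FPKM in tofogliflozin mice and 6.48, 8.68 and 11.6 FPKM in diet mice. Rnaset2b was at 19.7, 6.75 and 5.26 FPKM in tofogliflozin mice and 9.10, 7.85 and 4.94 FPKM in diet mice. Their sum was steadier, at 21.0, 20.4 and 14.98 FPKM in tofogliflozin mice and 15.6, 16.5 and 16.5 FPKM in diet mice, and since reads can be shared between the copies, the single values are uncertain.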
